A study of Saccharomyces cerevisiae with 12 samples.

Results

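The expression profile of budding yeast cells lacking HSP33 was set against that of cells lacking HSP31, on 3 arrays labelled hsp33 deletion and 3 labelled hsp31 deletion, out of 12 in the series. The arrays were assigned to groups by their labels, and all 6252 gene probes were considered. The hsp33 deletion, the hsp31 deletion, an hsp32 deletion and the wild type had 3 arrays each, and all came from cultures in synthetic complete medium collected at the diauxic shift. The parent strain, its auxotrophies and its mating type, the marker used for each deletion and the number of clones are not given in the labels. The genotype label of 1 of the 3 hsp33 deletion arrays reads hsp33 with no mention of a knockout, while its source name states the deletion. Nothing in the labels tells whether the 3 samples per group are separate cultures, so a p-value here measures spread among samples that could be technical only.

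Hsp31 and its paralogues Hsp32, Hsp33 and Sno4 belong to the DJ-1 superfamily. Hsp31 is known as a glyoxalase that detoxifies methylglyoxal and as a chaperone, and the family has been tied to survival in stationary phase. At the diauxic shift, glucose runs out and cells turn to the ethanol and acetate they made by fermentation. They then induce the glyoxylate cycle, gluconeogenesis and fatty acid oxidation, and reduce ribosome synthesis. Haploid yeast cells also carry a mating type, a or alpha, set by the genes at the MAT locus. Each type makes its own pheromone and the receptor for the pheromone of the other type.

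Each array gives 1 brightness per spot, reported here as a normalized log2 signal, and differences are log2 values of the hsp33 deletion minus the hsp31 deletion, ± the standard error of the limma fit. Of the 6252 probes, 5863 exceeded background on every array of 1 or more groups and were tested. Median spot brightness was 660 to 1088 on hsp33 deletion arrays, against 809 to 1153 on hsp31 deletion arrays, over a local background of 67 to 93. Arrays of a group correlated at 0.991 to 0.996 within the hsp33 deletion, against 0.980 to 0.996 within the hsp31 deletion, across genes, which are not independent replicates. Positions in the files place the arrays on 2 slides. Slide 1 held hsp33 deletion replicate 3 with hsp31 deletion replicates 1 and 2, and slide 2 held hsp33 deletion replicates 1 and 2 with hsp31 deletion replicate 3. A fit within 1 slide thus sets 1 array against 2, takes its spread from the groups with 2 arrays on that slide, at 2 residual degrees of freedom, and assumes that the lone array varies like the rest.

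HSP31 (YDR533C) was the gene with the largest difference. Its signal was 12.99, 13.18 and 13.22 on the hsp33 deletion arrays, against 6.49, 6.66 and 6.79 on the hsp31 deletion arrays. The hsp31 deletion values were below the background threshold on all 3 arrays, and the groups did not overlap. The transcript was therefore at least 62.2-fold higher in the hsp33 deletion, a bound set against the weakest detected signal of each hsp31 deletion array (limma adjusted p = 2.58e-14). Wild type averaged 12.65, so the hsp31 deletion label is borne out by its own gene.

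HSP33 (YOR391C) gave no such check of the other label. It read 9.41, 9.33 and 9.38 on the hsp33 deletion arrays, against 9.75, 10.05 and 9.86 on the hsp31 deletion arrays, with 11.11 in wild type. All 3 values in the gene's own deletion lay above background, and the difference was -0.51 ± 0.10 (limma adjusted p = 0.0116). SNO4 (YMR322C) fell by 0.59 ± 0.10 on the log2 scale (limma adjusted p = 0.00558), while HSP32 (YPL280W) differed by -0.37 ± 0.12 and did not pass (limma adjusted p = 0.0986). These genes are near-identical copies and their probes may share signal, so the 3 readings are not separate. The HSP33 call was lost without hsp33 deletion replicate 2 (adjusted p = 0.0627) and without hsp31 deletion replicate 2 (adjusted p = 0.0641). YOR392W, whose locus number follows that of HSP33, read 10.17, 10.16 and 10.20 in the hsp33 deletion, against 7.63, 8.0 and 7.88 in the hsp31 deletion. It was 5.07-fold higher (2.34 ± 0.12, limma adjusted p = 1.66e-08), above wild type at 8.40 and the hsp32 deletion at 8.65 as well. It was picked out after its values were seen. The other genes tested within 5 places of HSP31 or of HSP33 in the reference order did not pass.

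Across all genes tested, limma called 283 at an adjusted p under 0.05, which is 4.83% of them. In the hsp33 deletion 168 were higher (2.87%) and 115 lower (1.96%), and the median over all genes was 0.01. With each array scaled to its median instead, 87 were higher and 88 lower. Of the 283 called genes, 98 differed by at least 1.5-fold (1.67% of those tested), 50 higher (0.853%) and 48 lower (0.819%). At 4-fold or more there were 11 higher and 6 lower, and 11 of these genes belonged to the mating lists described below. In all, the 3 hsp33 deletion arrays lay above the 3 hsp31 deletion arrays for 868 genes (14.8%) and below them for 760 (13%). The count of called genes rested on single arrays. It was 98 without hsp33 deletion replicate 2, 117 without replicate 3, 138 without hsp31 deletion replicate 1 and 94 without replicate 2. The count at 1.5-fold or more was 148 without hsp33 deletion replicate 1 and 153 without hsp31 deletion replicate 3. A set of 79 genes, 42 higher and 37 lower, was called in the full fit and also without any 1 of the 6 arrays. Called genes described below belong to that set unless a loss of the call is stated.

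**Figure D1:**
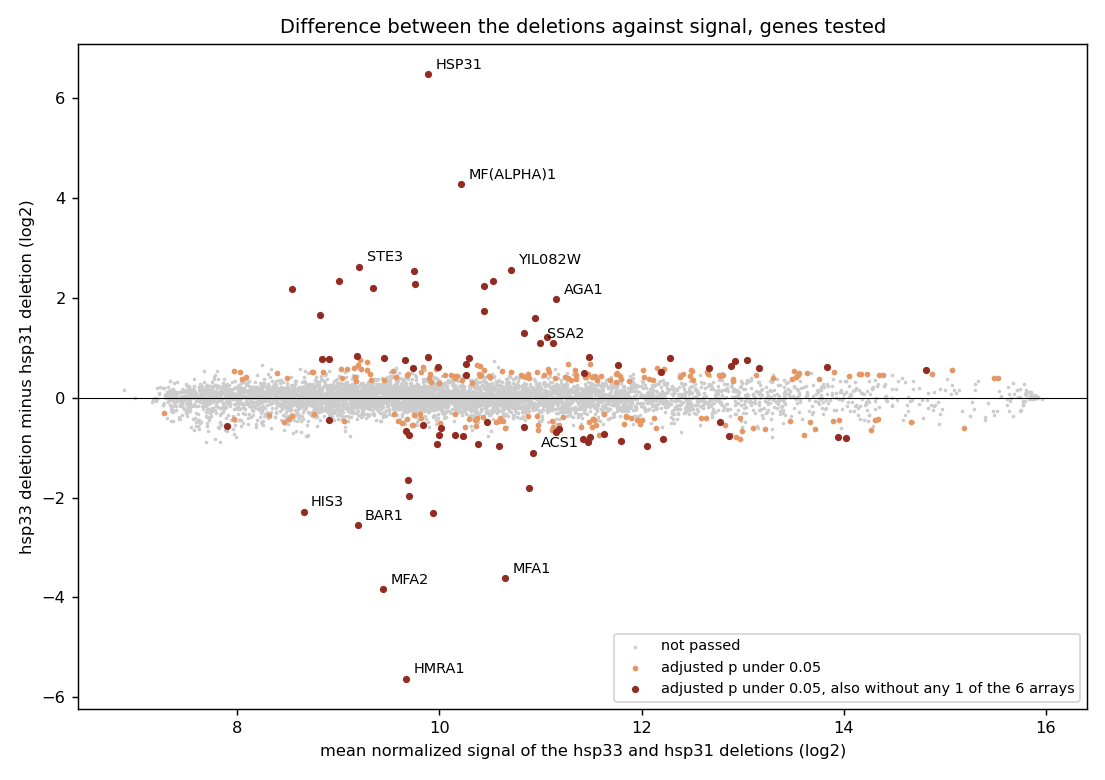
Difference between the hsp33 and hsp31 deletions (log2, vertical) against their mean normalized signal (log2, horizontal) for the 5863 genes tested. Dark points are the 79 genes called also without any 1 of the 6 arrays, orange points the other called genes, and a few genes, from -5.63 to 6.48, stand apart from the rest.

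The largest differences after HSP31 were in genes that tell the mating types apart. HMRA1 (YCR097W) encodes a1, a regulator made in a cells, and its sequence is also found at the MAT locus of a cells, so the probe can read either copy. It read 6.59, 7.13 and 6.85 on the hsp33 deletion arrays, against 12.50, 12.52 and 12.44 on the hsp31 deletion arrays. The 3 values of the hsp33 deletion were below background, and the transcript was at least 37.8-fold lower there (limma adjusted p = 4.44e-12). It was at 12.12 in the hsp32 deletion and at 12.74 in wild type.

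All 7 a-cell genes fell in the hsp33 deletion, with a median of -2.30, and on all 3 arrays each lay under the hsp31 deletion. MFA1 (YDR461W), a gene for the a-factor pheromone, read 8.88, 8.67 and 8.99 in the hsp33 deletion, against 12.51, 12.41 and 12.45 in the hsp31 deletion. It was 12.2-fold lower (-3.61 ± 0.10, limma adjusted p = 9.06e-12), and MFA2 (YNL145W), the other a-factor gene, 14.3-fold lower (-3.83 ± 0.16). The groups lay far apart for both genes. STE2 (YFL026W), the receptor for alpha-factor, read 8.86, 8.67 and 8.81 in the hsp33 deletion, against 11.17, 11.07 and 11.01 in the hsp31 deletion, and was 4.93-fold lower. BAR1, the protease that cleaves alpha-factor, was 5.88-fold lower and AGA2, the binding subunit of a-agglutinin, 3.90-fold lower. STE6, the a-factor exporter, was 3.50-fold lower and ASG7, an a-cell regulator of signalling, 3.14-fold lower. All 7 were still above background on all 3 hsp33 deletion arrays. Their summed linear signal was 3189 to 3303 in the hsp33 deletion, against 18135 to 19024 in the hsp31 deletion, with 18363 to 21091 in the hsp32 deletion and 8118 to 8750 in wild type. In bulk RNA, fewer cells of a type and less RNA per cell cannot be told apart.

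All 4 alpha-cell genes rose, with a median of 2.40. MF(ALPHA)1 (YPL187W), the main alpha-factor gene, read 12.38, 12.44 and 12.26 in the hsp33 deletion, against 7.78, 8.10 and 8.36 in the hsp31 deletion. It was 19.4-fold higher (4.28 ± 0.12, limma adjusted p = 1.71e-11). STE3 (YKL178C), the a-factor receptor, read 10.53, 10.52 and 10.52 in the hsp33 deletion, against 7.58, 8.05 and 8.06 in the hsp31 deletion, a 6.18-fold rise. MF(ALPHA)2 (YGL089C), the minor alpha-factor gene, was 4.52-fold higher, with 1 of 3 hsp31 deletion arrays above background, so its size is uncertain, and the log2 difference ran from 1.74 to 3.13 over the processing alternatives. SAG1, alpha-agglutinin, was 3.33-fold higher. For each of the 4, every hsp33 deletion array lay above every hsp31 deletion array. Their summed signal was 9661 to 10628 in the hsp33 deletion, against 1340 to 1522 in the hsp31 deletion, 1342 to 1453 in the hsp32 deletion and 1403 to 1449 in wild type.

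The regulators of alpha cells moved the same way. MATALPHA1 (YCR040W), which encodes the activator alpha1 and shares its sequence with the silent copy HMLALPHA1, read 10.93, 11.05 and 10.72 in the hsp33 deletion, against 9.12, 8.25 and 8.47 in the hsp31 deletion. It was 4.88-fold higher (2.29 ± 0.18, limma adjusted p = 1.43e-06), and the HMLALPHA1 probe 5.81-fold higher. AFB1, an alpha-cell gene for a protein that binds a-factor, was 4.57-fold higher. The probes for alpha2 and its HMR counterpart differed far less. They may read shared sequence, so their readings may not measure alpha2 alone. The MATALPHA2 probe averaged 12.43 in the hsp33 deletion, 11.93 in the hsp31 deletion and 11.59 in wild type. MATALPHA2 was 1.42-fold higher (0.51 ± 0.10, limma adjusted p = 0.0125), a call lost without hsp33 deletion replicate 3 (adjusted p = 0.0605) or hsp31 deletion replicate 2 (adjusted p = 0.0575). HMRA2 (0.45 ± 0.15) and HMLALPHA2 (0.47 ± 0.15) did not pass. YCR041W, the next gene after MATALPHA1 in the reference order, rose by 2.23 ± 0.13 and YCR097W-A by 2.33 ± 0.14. These genes, which have no standard name, were named after their values were seen.

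**Figure D2:**
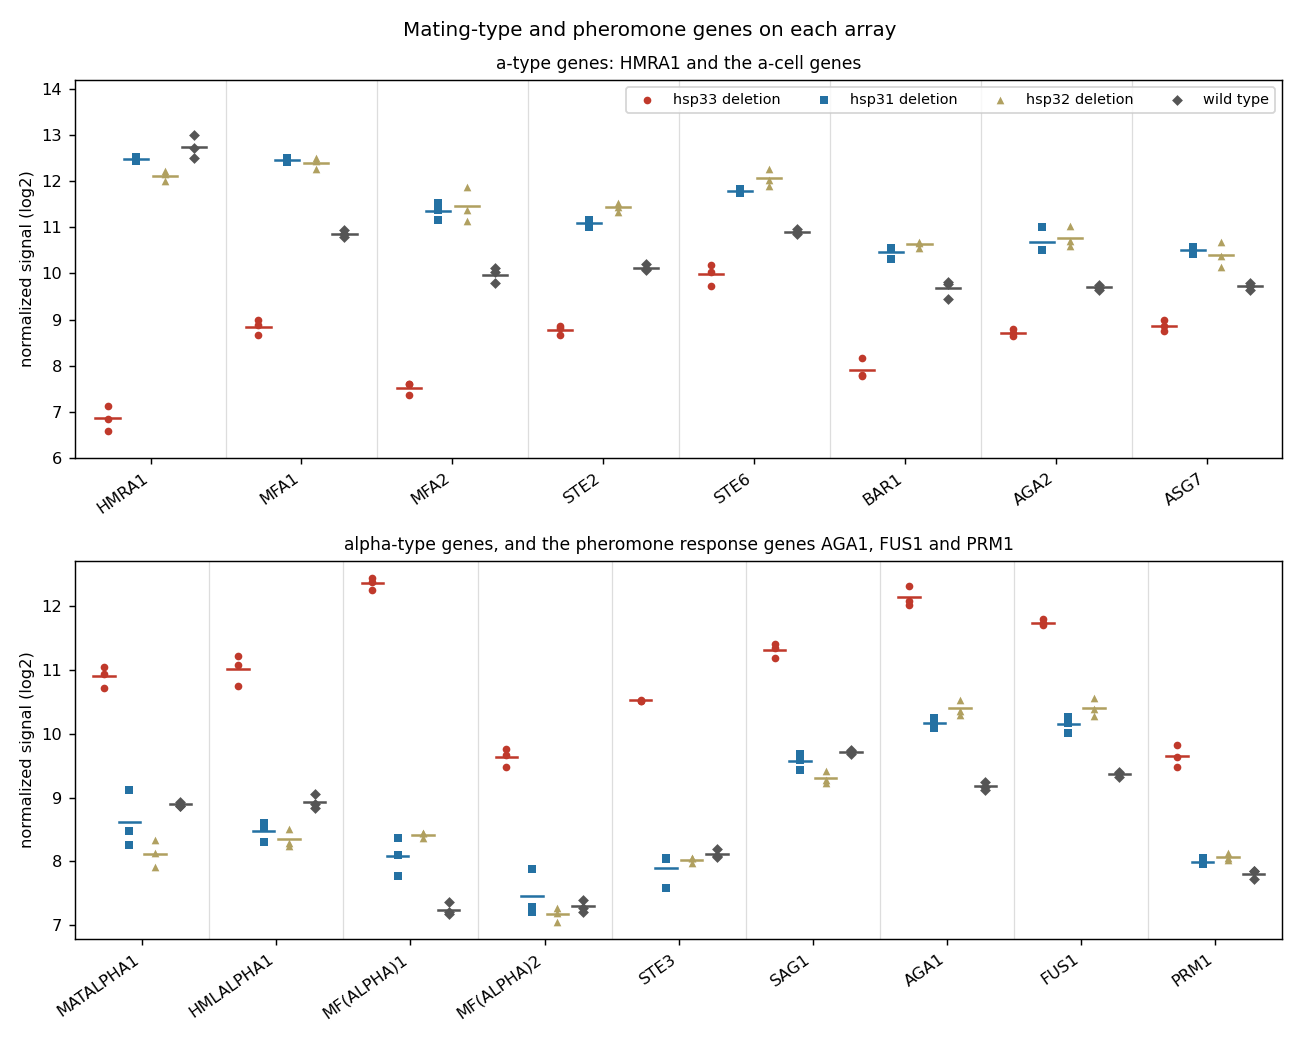
Normalized log2 signal (vertical) of mating-type and pheromone response genes, 3 arrays per group as points and the group mean as a bar, for the hsp33 deletion, the hsp31 deletion, the hsp32 deletion and wild type from left to right within each gene. The 3 hsp33 deletion arrays lie under all arrays of the other groups for HMRA1 and the 7 a-cell genes, and above them for the genes in the lower panel.

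The 8 markers of sporulating diploid cells showed no such shift. Their summed signal was 2385 to 2677 in the hsp33 deletion, against 2319 to 2728 in the hsp31 deletion. The labels give no mating type for any strain. The a-cell and alpha-cell patterns divided the arrays exactly as the deletion labels did, so whatever goes with mating type and whatever goes with the deletions cannot be told apart in the comparison, for these genes or for those that follow.

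Genes of the pheromone response also rose. Of the 18 pheromone response and haploid genes, 11 were higher in the hsp33 deletion, or 61.1% against 2.87% of all genes. In this list 0 were lower and the median difference was 0.45. The median signal of the list was 10.46 in the hsp33 deletion and 10.16 in the hsp31 deletion. It was 10.23 in the hsp32 deletion and lowest in wild type, at 9.29. AGA1, the anchor subunit of a-agglutinin, read 12.09, 12.02 and 12.32 in the hsp33 deletion, against 10.19, 10.24 and 10.09 in the hsp31 deletion. It was 3.92-fold higher (1.97 ± 0.10, limma adjusted p = 1.03e-08). FUS1 (YCL027W), a cell fusion gene, read 11.74, 11.79 and 11.70 in the hsp33 deletion, against 10.01, 10.17 and 10.27 in the hsp31 deletion, a 3.02-fold rise. The groups did not overlap for either gene. PRM1, a membrane fusion gene, was 3.15-fold higher, KAR4, a transcription factor of karyogamy, 2.45-fold and FIG2, a mating adhesin, 2.33-fold. STE12 (0.81 ± 0.10), the transcription factor of the response, FAR1 (0.77 ± 0.08), which arrests the cycle, and SST2 (0.75 ± 0.12), which damps signalling, were named after their values were seen. PRM8, a pheromone-regulated membrane protein outside that list, rose by 0.79 ± 0.14. Of these 18 genes, 9 were called with the slide as a block, and 5 within each slide alone, where 1 deletion has a lone array.

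HIS3 (YOR202W), an enzyme of histidine synthesis that is a common auxotrophic marker, was the largest fall outside the mating genes. It read 7.55, 7.52 and 7.47 on the hsp33 deletion arrays, against 9.63, 9.88 and 9.89 on the hsp31 deletion arrays, with no overlap. It was 4.88-fold lower (-2.29 ± 0.12, limma adjusted p = 1.30e-08), and wild type at 8.84 lay between the deletions. The hsp33 deletion values were close to the lowest detected signal of those arrays, 7.22 to 7.27, so the size of the fall is uncertain. The log2 difference ran from -2.88 to -2.23 over the processing alternatives. MET17, an enzyme of sulfur assimilation that also serves as a marker, was 1.38-fold higher (0.47 ± 0.12, limma adjusted p = 0.0392). That call was lost without any 1 of hsp33 deletion replicates 2 and 3 and hsp31 deletion replicates 1, 2 and 3, with adjusted p up to 0.110. The other 5 strain markers tested lay between -0.20 and 0.21 and did not pass.

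Of the called genes with no standard name, 15 were higher and 18 lower, and a few of them are named here after their values were seen. YIL082W read 11.96, 12.17 and 11.85 in the hsp33 deletion, against 9.52, 9.35 and 9.42 in the hsp31 deletion, and was 5.91-fold higher (2.56 ± 0.09, limma adjusted p = 3.66e-10). YIL082W-A, next to it by number, was 2.14-fold higher. The hsp32 deletion (9.09) and wild type (9.31) were near the hsp31 deletion for YIL082W. YLR156W, YLR159W and YLR161W, whose locus numbers lie close together, fell by 0.79 ± 0.09, 0.89 ± 0.10 and 0.83 ± 0.09 on the log2 scale. They have the same coding length in the reference annotation, and their probes may read shared sequence. YLR159W averaged 11.03 in the hsp33 deletion, 11.91 in the hsp31 deletion and 10.70 in wild type, so wild type lay nearer the hsp33 deletion.

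Some genes for the use of acetate and fatty acids fell in the hsp33 deletion. Of the 20 genes of the glyoxylate cycle and gluconeogenesis, 5 fell, or 25% against 1.96% of all genes, and 1 rose, with a median of -0.44 against 0.01 over all genes, and 19 of the 20 differences were negative. ACS1 (YAL054C), which makes acetyl-CoA from acetate, read 10.62, 10.19 and 10.32 in the hsp33 deletion, against 11.66, 11.54 and 11.23 in the hsp31 deletion. It was 2.14-fold lower (-1.10 ± 0.16, limma adjusted p = 0.00136). MLS1 (YNL117W), malate synthase of the glyoxylate cycle, read 9.72, 9.35 and 9.47 in the hsp33 deletion, against 10.60, 10.49 and 10.24 in the hsp31 deletion, and was 1.90-fold lower. The groups did not overlap for either gene, and wild type lay higher still, at 12.74 for ACS1 and 11.10 for MLS1. ATO2, an acetate and ammonium transporter, was 1.70-fold lower. The 1 rise was MAE1, malic enzyme, at 0.51 ± 0.12 (limma adjusted p = 0.0267), named after its value was seen and lost without hsp33 deletion replicate 2 or 3 or hsp31 deletion replicate 1 or 2 (adjusted p up to 0.111).

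Of the 34 genes of peroxisomes and fatty acid oxidation, 8 fell, or 23.5%, and 0 rose, with a median of -0.30. CAT2, carnitine acetyltransferase, read 11.82, 11.55 and 11.33 in the hsp33 deletion, against 12.68, 12.53 and 12.41 in the hsp31 deletion, and was 1.96-fold lower (-0.97 ± 0.17, limma adjusted p = 0.00603). POT1, the thiolase of beta-oxidation, and POX1, its acyl-CoA oxidase, each fell by 0.76 on the log2 scale, and both were higher in wild type. CRC1, the mitochondrial carnitine carrier, was 1.69-fold lower, a call lost without any 1 of the 6 arrays other than hsp31 deletion replicate 3 (adjusted p up to 0.152). PDH1, which acts in propionate metabolism, was 1.95-fold lower and CIT3, a mitochondrial citrate and methylcitrate synthase, 1.69-fold lower. The regulator CAT8, an activator of gluconeogenic genes, fell by 0.75 ± 0.15, a call lost without hsp33 deletion replicate 2 (adjusted p = 0.0639) or 3 (adjusted p = 0.0605) or hsp31 deletion replicate 2 (adjusted p = 0.0547). Without hsp33 deletion replicate 2 or 3, 4 of the 34 genes were called, as also without hsp31 deletion replicate 2 and with only the 6 arrays in the fit. Without those same arrays, falls among the 20 genes of the glyoxylate cycle and gluconeogenesis numbered 4, 3 and 3.

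HXT5, a hexose transporter of slow-growing cells, read 13.96, 13.60 and 13.31 in the hsp33 deletion, against 14.48, 14.48 and 14.32 in the hsp31 deletion, and was 1.75-fold lower. PHO89, a sodium and phosphate cotransporter, was 1.91-fold lower. BOP2, of no settled function, was 1.82-fold lower, HMX1, a heme oxygenase, 1.66-fold and DIP5, a permease for acidic amino acids, 1.61-fold. PUT1, proline oxidase, was 1.56-fold lower. For DIP5 and HMX1 the hsp31 deletion stood apart from both the hsp33 deletion and wild type. DIP5 averaged 10.81 in the hsp33 deletion, 11.50 in the hsp31 deletion and 10.81 in wild type. HMX1 averaged 11.26 in the hsp33 deletion, 11.99 in the hsp31 deletion and 11.42 in wild type.

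A few stress and stationary phase genes fell as well. Of the 28 stationary phase and hydrophilin genes, 5 fell, or 17.9%, and 0 rose, with a median of -0.23. SPG1 (YGR236C), needed for survival at high temperature in stationary phase, read 11.97, 11.76 and 11.66 in the hsp33 deletion, against 12.71, 12.58 and 12.61 in the hsp31 deletion, and was 1.79-fold lower (-0.84 ± 0.10, limma adjusted p = 0.000154). SPG4, of the same class, was 1.74-fold lower and SPS100, a spore wall gene, 1.68-fold lower. Without hsp31 deletion replicate 2 the list held 3 calls. Wild type was far above both deletions for SPG1 (14.74) and SPS100 (13.51). Of the 46 Msn2/Msn4 general stress genes, 5 fell, or 10.9%, and 0 rose, with a median of -0.24. With the slide as a block 2 were called lower, and with only the 6 arrays in the fit 0. None of those 5 kept its call without each of the 6 arrays. Leaving out hsp33 deletion replicates 1, 2 and 3 in turn gave 8, 2 and 1 falls in the list, and hsp31 deletion replicates 1, 2 and 3 gave 2, 1 and 9. The fall of PGM2, phosphoglucomutase, was 0.62 ± 0.15 on the log2 scale, and that of the hydrophilin GRE1 0.61 ± 0.12. PGM2 lost its call without hsp33 deletion replicate 2 or 3 or hsp31 deletion replicate 1 or 2 (adjusted p up to 0.138), and GRE1 without hsp31 deletion replicate 2 (adjusted p = 0.0505).

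Among 39 autophagy genes 4 fell, or 10.3% against 1.96% of all genes, and 0 rose, with a median of -0.17. The count was 2 with the slide as a block or with only the 6 arrays in the fit, and 0 with the second spot alone. It was 0 without hsp33 deletion replicate 2 or 3, 2 without hsp31 deletion replicate 1 and 1 without replicate 2. ATG8, the lipid-linked protein of the autophagosome, fell by 0.52 ± 0.10 on the log2 scale and ATG39, a receptor for autophagy of the nuclear envelope, by 0.66 ± 0.13. Both calls were lost without hsp33 deletion replicate 2 (adjusted p = 0.0639 and 0.0577) or 3 (adjusted p = 0.0551 and 0.0544), as was that of ATG39 without hsp31 deletion replicate 2 (adjusted p = 0.059). Among 18 vacuolar hydrolases 3 fell, or 16.7%, among them CPS1, a carboxypeptidase, which was 1.39-fold lower. Oxidative stress defence had 3 falls in 39 genes, or 7.7%, and a median of -0.04. GTT1, a glutathione transferase, was the lowest of them at -0.67 ± 0.13, a call lost without hsp33 deletion replicate 3 (adjusted p = 0.0563) or hsp31 deletion replicate 2 (adjusted p = 0.059). Of 9 genes of methylglyoxal metabolism, the pathway in which Hsp31 acts, HSP31 rose and GRE2, a methylglyoxal reductase, fell by 0.50 ± 0.12. The GRE2 call was lost without hsp33 deletion replicate 2 or 3 or hsp31 deletion replicate 1 or 2 (adjusted p up to 0.137). GLO1, glyoxalase I, averaged 12.30 in the hsp33 deletion, against 12.85 in the hsp31 deletion, and did not pass (-0.54 ± 0.15, limma adjusted p = 0.0558).

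Some genes of the translation machinery rose in the hsp33 deletion, by small amounts. Of 138 cytosolic ribosomal proteins, 35 rose and 0 fell, or 25.4% against 2.87% of all genes, and the median was 0.30, with 130 differences positive. RPS0B (YLR048W), a small subunit protein, was 1.56-fold higher (0.65 ± 0.10, limma adjusted p = 0.00249) and RPS15, another, 1.47-fold higher. RPS0B averaged 13.21 ± 0.09 in the hsp33 deletion and 12.56 ± 0.07 in the hsp31 deletion (SD, n = 3 each), and the arrays did not overlap for either gene. Many ribosomal proteins come from near-identical gene pairs, and 1 probe may read both copies. The count for the cytosolic ribosomal proteins depended on single arrays, at 6 without hsp33 deletion replicate 2, 4 without replicate 3, 8 without hsp31 deletion replicate 1 and 3 without replicate 2, while their median stayed between 0.22 and 0.35. Within slide 1 the median was 0.51 and within slide 2 it was 0.12. The value on slide 1 rests on hsp33 deletion replicate 3 alone and that on slide 2 on hsp31 deletion replicate 3 alone. List medians, relative to the hsp31 deletion mean of each gene, were 0.21, 0.24 and 0.46 on hsp33 deletion replicates 1, 2 and 3. They were -0.05, -0.04 and 0.10 on hsp31 deletion replicates 1, 2 and 3. The count was 21 with the slide as a block, 10 with median scaling and 3 with only the 6 arrays in the fit.

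Of 139 ribosome biogenesis genes, 11 rose and 0 fell, or 7.9% against 2.87% of all genes, with a median of 0.22. ARX1, an export factor of the large subunit, was 1.58-fold higher and ERB1, an assembly factor, 1.57-fold higher. Both calls were lost without hsp33 deletion replicate 2 or 3 or hsp31 deletion replicate 1 or 2 (adjusted p up to 0.110 for ARX1 and 0.122 for ERB1). Without those arrays in turn the number of ribosome biogenesis genes called higher was 0, 0, 1 and 0, without hsp31 deletion replicate 3 it was 25, and with the slide as a block or only the 6 arrays it was 0. RPA135, the second largest subunit of RNA polymerase I, read 1.60-fold higher in the hsp33 deletion (0.68 ± 0.11, limma adjusted p = 0.00451) and kept its call without each of the 6 arrays.

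Some chaperone genes rose too. Of 38 heat shock proteins and chaperones, 7 rose and 0 fell, or 18.4%, with a median of 0.21. SSA2 (YLL024C), a cytosolic Hsp70, read 11.29, 11.51 and 11.82 in the hsp33 deletion, against 10.15, 10.53 and 10.68 in the hsp31 deletion. It was 2.13-fold higher (1.09 ± 0.17, limma adjusted p = 0.00206), the largest rise among genes with a standard name outside the DJ-1 and mating lists. YDJ1, its Hsp40 partner, read 12.51, 12.74 and 12.81 in the hsp33 deletion, against 11.70, 11.94 and 12.02 in the hsp31 deletion, and was 1.74-fold higher. HSP82, the inducible Hsp90, was 1.68-fold higher. For HSP82 wild type (13.95) lay above both deletions, while for SSA2 wild type (10.30) lay near the hsp31 deletion. BTN2, a factor that gathers misfolded proteins, rose by 0.68 ± 0.14, a call lost without hsp33 deletion replicate 2 or 3 or hsp31 deletion replicate 1 or 2 (adjusted p up to 0.0847). In all, 4 of the 38 were called without hsp33 deletion replicate 2 and 3 without hsp31 deletion replicate 2. SSA2 and HSP82 have close copies in the genome, SSA1 and HSC82, with which their probes may share signal. SSA1 differed by 0.28 and did not pass (limma adjusted p = 0.237). HSC82 rose by 0.40 (limma adjusted p = 0.0119), a call lost without hsp33 deletion replicate 2 (adjusted p = 0.0676) or hsp31 deletion replicate 2 (adjusted p = 0.068).

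Some nucleotide, sulfur and cell wall genes rose. Of 18 purine synthesis genes 6 rose, or 33.3% against 2.87% of all genes, and 0 fell, with a median of 0.27, among them IMD4 (1.57-fold) and IMD3 (1.4-fold), which encode near-identical IMP dehydrogenases. RNR1, the large subunit of ribonucleotide reductase, read 9.49, 9.61 and 9.70 in the hsp33 deletion, against 8.53, 9.03 and 8.75 in the hsp31 deletion, and was 1.78-fold higher. Of 32 sulfur amino acid genes 6 rose, or 18.8%, and 0 fell, with a median of 0.22, and MET1, of siroheme synthesis, was 1.52-fold higher. SCW10, a cell wall glucanase-like protein that also has a part in mating, read 13.25, 13.38 and 13.23 in the hsp33 deletion, against 12.47, 12.56 and 12.65 in the hsp31 deletion, and was 1.65-fold higher (0.73 ± 0.08, limma adjusted p = 0.0001). TIP1, a mannoprotein, was 1.5-fold higher, and with 5 rises among 50 cell wall genes, or 10%, the list median was 0.02. IZH2, a membrane protein of zinc homeostasis, was 1.77-fold higher and GND1, a dehydrogenase of the pentose phosphate pathway, 1.53-fold higher. With only the 6 arrays in the fit 1 purine, 1 sulfur and 2 cell wall genes were called, and with the slide as a block 3, 4 and 3. Counts of purine, sulfur and cell wall genes were 3, 2 and 2 without hsp33 deletion replicate 2 and 2, 3 and 3 without replicate 3. They were 3, 3 and 2 without hsp31 deletion replicate 1 and 2, 1 and 3 without replicate 2, and 3 sulfur genes were called without hsp33 deletion replicate 1.

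**Figure D3:**
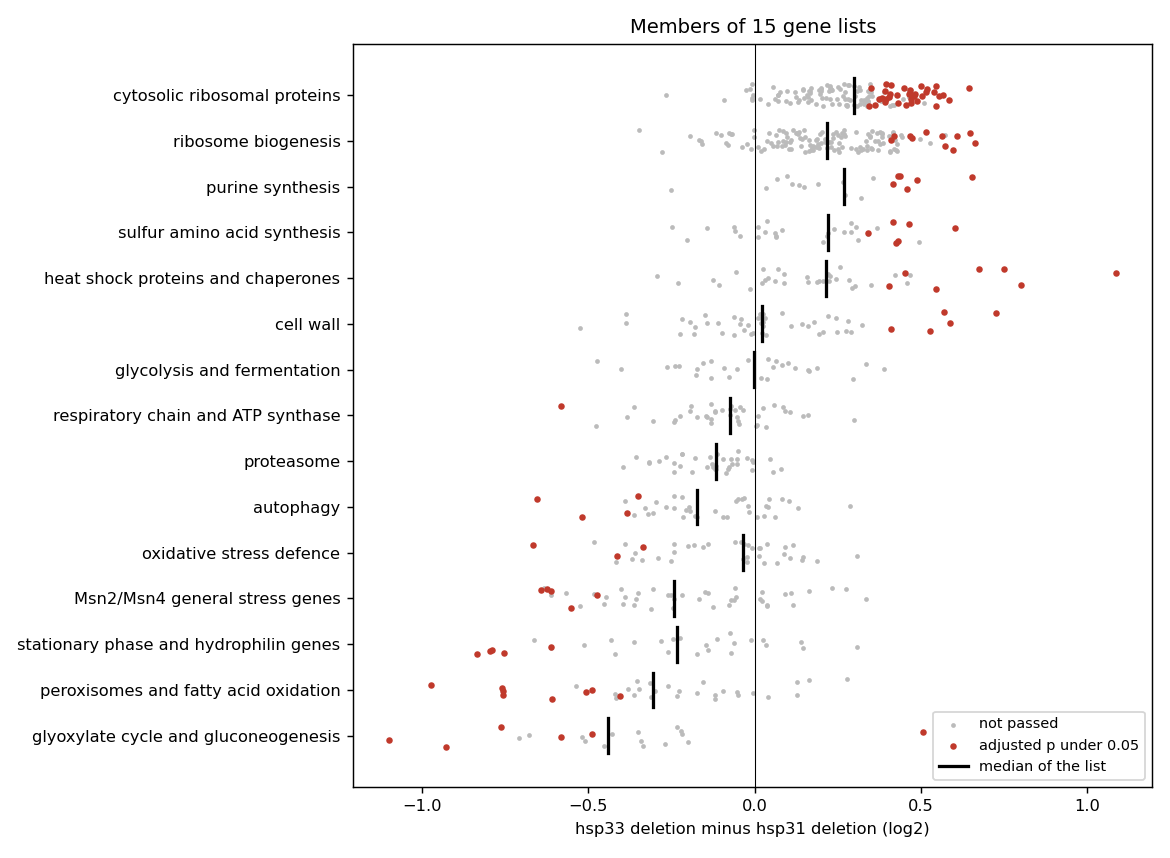
Differences between the hsp33 and hsp31 deletions (log2, horizontal) for the tested members of 15 gene lists (rows), with called genes in red, the others in grey and the list median as a black bar. Medians run from -0.44 for the glyoxylate cycle and gluconeogenesis to 0.30 for the cytosolic ribosomal proteins.

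**Figure D4:**
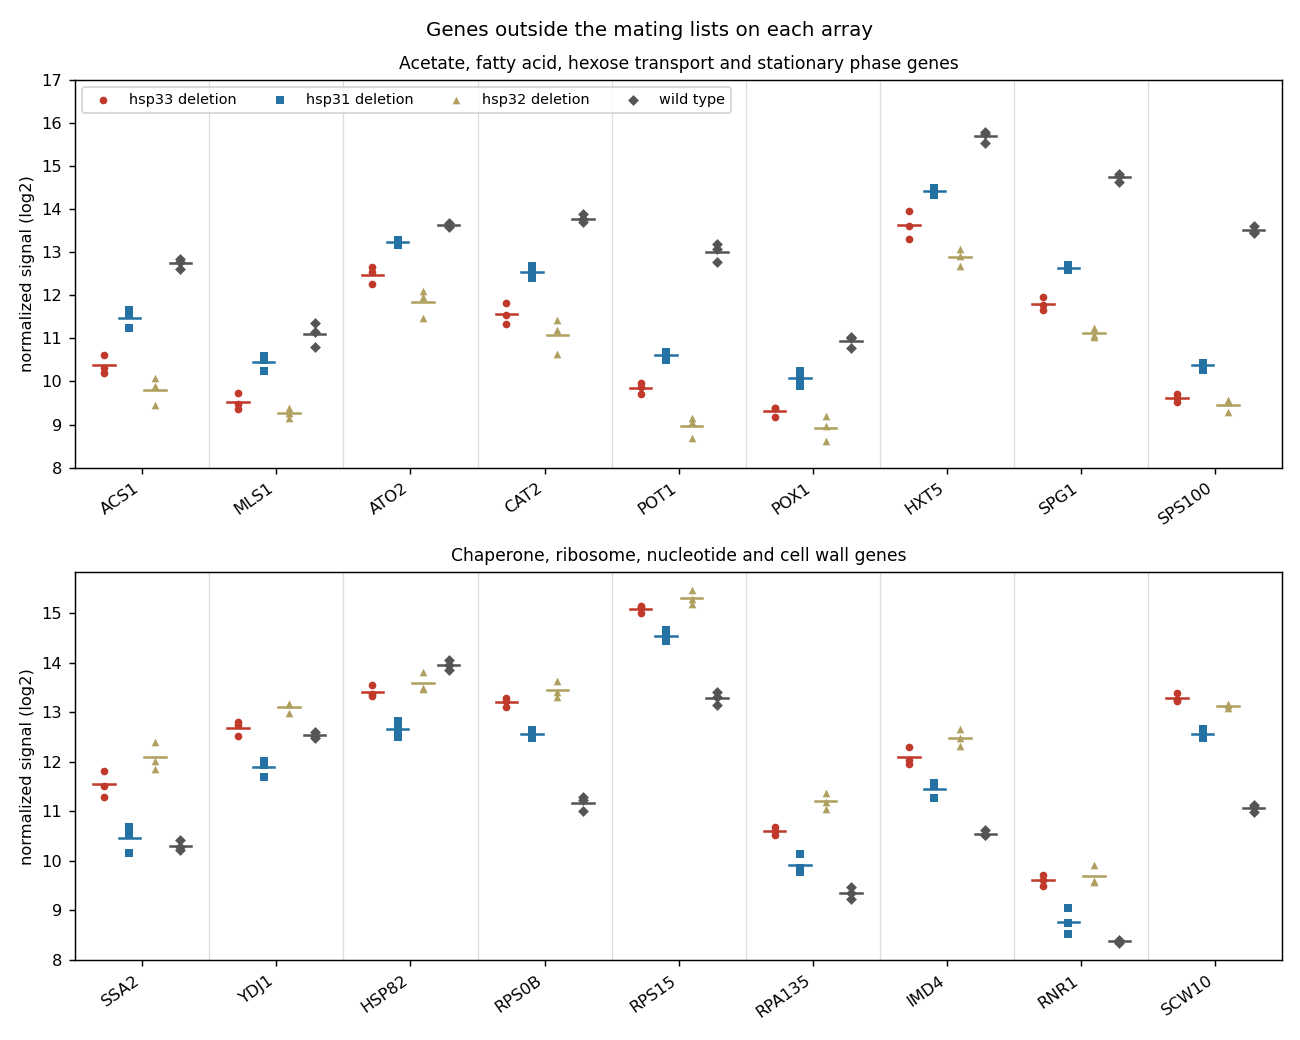
Normalized log2 signal (vertical) of genes outside the mating lists, 3 arrays per group as points and the group mean as a bar, in the order hsp33 deletion, hsp31 deletion, hsp32 deletion and wild type within each gene. The hsp33 deletion lies under the hsp31 deletion in the upper panel and above it in the lower panel, with the hsp32 deletion beyond the hsp33 deletion for all genes shown but SCW10.

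Over all genes tested 4.83% were called, so a short list could hold few called genes or none. Several groups held no called gene. These were 28 genes of glycolysis and fermentation, 37 of the proteasome, 53 of nutrient signalling, 11 histones, 27 cyclins and cell cycle genes, 16 thiamine genes, 9 SNZ and SNO genes of vitamin B6 synthesis and 8 mitochondrially encoded genes. Their medians were 0.00, -0.12, -0.02, -0.01, -0.06, 0.10, 0.23 and -0.15. At an unadjusted limma p under 0.05 the same lists held 6, 8, 9, 1, 3, 1, 4 and 1 genes, against 1357 of the 5863 genes tested. Of these lists, only the SNZ and SNO genes held a larger share than all genes. A missing call is no measure of equality. Of 40 genes of the respiratory chain and ATP synthase 1 fell, or 2.5% against 1.96% of all genes. It was NDE2, an external NADH dehydrogenase (-0.58 ± 0.14), a call lost without hsp33 deletion replicate 2 or 3 or hsp31 deletion replicate 1 or 2 (adjusted p up to 0.101). Among 77 mitochondrial ribosomal proteins 1 rose, or 1.3% against 2.87% of all genes, with a median of 0.01.

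Most differences outside the mating lists were larger on slide 1 than on slide 2. Slide 1 held hsp33 deletion replicate 3 alone and slide 2 hsp31 deletion replicate 3 alone, so the slide and these arrays cannot be told apart. For the 255 called genes outside those lists the median size was 0.66 on slide 1 and 0.34 on slide 2, and 224 of the 255 were larger on slide 1. For the 28 called genes in the lists it was 1.81 on slide 1 and 1.75 on slide 2. ACS1 differed by -1.28 on slide 1 and by -0.82 on slide 2, SSA2 by 1.48 and 0.72, and RPS0B by 0.70 and 0.56. HIS3 differed by -2.29 on slide 1 and by -2.35 on slide 2, and STE3 by 2.71 and 2.46. With the slide as a block 155 genes were called, within slide 1 alone 36 and within slide 2 alone 28, the within-slide fits each having 1 deletion with a lone array. Called in the full fit and within each slide alone were 24 genes, a count those small fits limit. Of these, 18 stood in the mating lists and the other 6 were HSP31, HIS3, YOR392W, YIL082W, YCR041W and YCR097W-A. YCR041W follows MATALPHA1 in the reference order, and YCR097W-A shares the locus number of HMRA1 (YCR097W), though both are counted outside the mating lists.

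**Figure D5:**
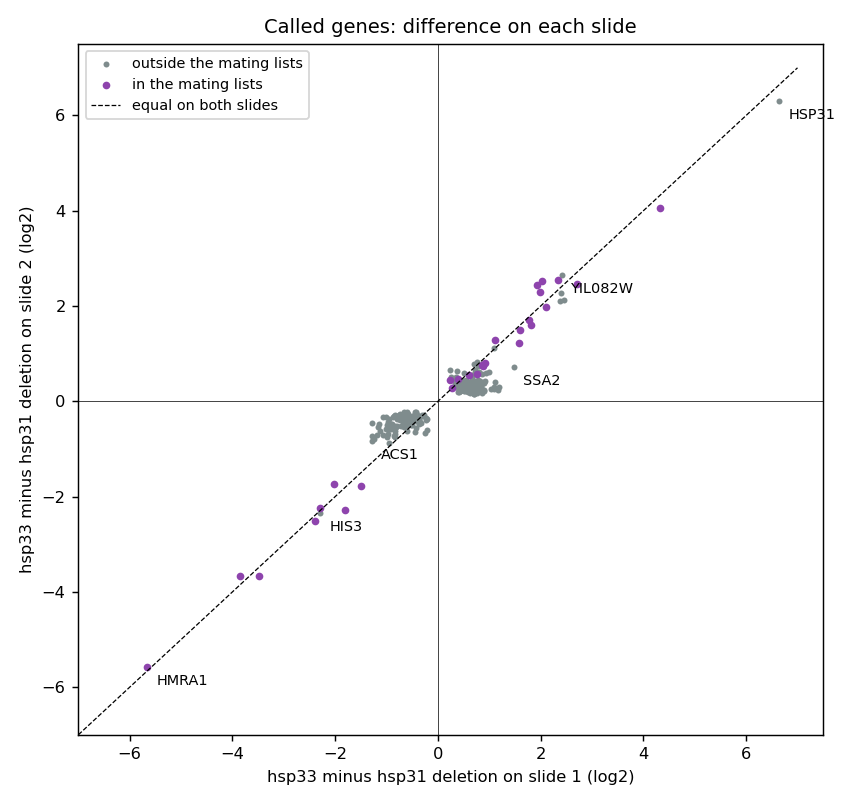
Difference between the hsp33 and hsp31 deletions on slide 2 (log2, vertical) against that on slide 1 (log2, horizontal) for the 283 called genes, in purple where they belong to the mating lists and in grey elsewhere. The mating genes, HSP31 and HIS3 lie along the dashed line of equal differences, and most of the other genes lie nearer 0 on slide 2.

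Wild type and the hsp32 deletion were measured in the same fit and place these differences on a wider range. The background threshold of hsp32 deletion replicate 2 was 284, against 39.9 and 49.2 on replicates 1 and 3. On it 80.3% of probes exceeded background, and the group orders below were not redone without it. Without that array 289 genes were called between the hsp33 and hsp31 deletions. Against wild type, 61.4% of the genes were called in the hsp33 deletion and 56.1% in the hsp31 deletion, comparisons that share the wild-type arrays. The hsp33 deletion was farther from wild type than the hsp31 deletion, on the same side, in 114 of the 148 genes called higher outside the mating lists and in 86 of the 107 called lower. Over all genes tested that share was 57.3%. In 99 of those 148 genes the group means climbed in the order wild type, hsp31 deletion, hsp33 deletion, hsp32 deletion. In 76 of the 107 they descended in that order. The call itself fixes the step between the hsp31 and hsp33 deletions. Of all genes tested, 3068 had a positive difference, and 1274 of them climbed in that order. Of the 2795 with a negative difference, 1286 descended in it. The called genes were chosen for their difference between 2 of the 4 groups, so these shares are a description. In the a-cell and alpha-cell genes the order was another, with the hsp33 deletion at 1 end. The a-cell genes had a median signal of 8.78 in the hsp33 deletion and 9.97 in wild type. Theirs was 11.08 in the hsp31 deletion and 11.43 in the hsp32 deletion, so wild type lay between. The alpha-cell median was 10.92 in the hsp33 deletion. It was 7.99 in the hsp31 deletion, 8.22 in the hsp32 deletion and 7.70 in wild type.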

How the data were processed

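Total RNA of 12 yeast samples was labelled with 1 dye and hybridised to 1-colour arrays, per the labels' protocols. Each scanner file holds the foreground intensity, the local background intensity and the percent of saturated pixels of each spot as deposited by the authors, per the file headers, with no normalization. The authors' deposited value table equals the median foreground intensity in 100% of spots. Build and probe annotation version are not given in the sources used here, and 5753 of 6252 probes matched the reference gene table. The authors' comparisons with wild type were not used here.

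Mean foreground was corrected with normexp (offset 50, local median background) and quantile normalized over gene spots in limma 3.58.1 under R 4.3.3. Values were taken to log2, and the 2 spots of a probe were averaged. Background was the median plus 2 SD of 77 negative control spots. Genes above it on all arrays of at least 1 of the 4 groups entered 1 limma fit of 4 group means with 8 residual degrees of freedom, Benjamini-Hochberg adjusted over 5863 genes at 0.05. The script was tested on simulated data. The number of arrays limits the precision, and the median standard error of a difference was 0.106. Where a group was below background on all 3 arrays, a fold is a bound against the lowest detected signal. Slides were inferred from repeated spot positions and scan offsets, not from a label.

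Names were drawn from the 4 DJ-1 genes and from the 15 largest rises and the 15 largest falls. Those rises and falls were taken among called genes with a standard name whose arrays did not overlap. Up to 4 members of each list by size of change, and all strain markers and mating-type genes, could also be named. Not all of these genes are named here. Other names are stated as chosen after their values were seen. The comparison, its members and the gene lists were chosen with earlier results of these data known, and the list of mating type cassettes was added with the values in view. Same-numbered arrays of the hsp33 and hsp31 deletions correlated at 0.031, -0.223 and -0.081 in their deviations from the group means, so no pairing by number was assumed. Alternatives covered scaling, background, columns, filters, spots, variance models, slide, replicate number and left-out arrays.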

Additional observations from a re-analysis of the deposited data

How the results depend on the processing

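The number of called genes moved by over 1.5 times under several alternatives. With array weights it was 614 (299 higher, 315 lower, 578 outside the mating lists), and with the median foreground 445 (203 lower, 413 outside). The authors' value table gave 184 lower, and the second spot alone 76 lower. Median scaling gave 175 (87 higher, 150 outside). Fitting only the 6 arrays gave 98 (47 higher, 51 lower, 75 outside). With the slide as a block it was 155 (85 higher, 70 lower, 129 outside). Within slide 1 it was 36 (19 higher, 17 lower, 36 at 1.5-fold or more, 18 outside) and within slide 2 it was 28 (17 higher, 11 lower, 28 at 1.5-fold or more, 8 outside), from fits in which 1 of the deletions had 1 array. Leaving out 1 array of the 6 gave 94 to 399 called genes, 51 to 244 higher, 43 to 155 lower, 73 to 153 at 1.5-fold or more and 69 to 369 outside the mating lists. With the replicate number as a block, the replicate block gave 377. The cause of these movements was not tested. Fits with fewer arrays also have fewer degrees of freedom. No called gene named here turned its direction under these alternatives. The planned search for promoter motifs was not run, since no promoter sequences were used here. Signal over background limited 2 genes to a bound, HSP31 and HMRA1.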
